A study of Homo sapiens with 12 samples.

Results

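In non-activated Jurkat cells, the RNA crosslinked to the EIF3B/C band of the eIF3 immunoprecipitate was compared with the RNA crosslinked to the EIF3D/L band. The members are the 4 PAR-CLIP libraries of these bands in non-activated cells, 2 replicates of each band, out of 20 PAR-CLIP cluster lists of the series. They were chosen by band and state, and not by any measured value. At least 1 of the 4 lists named 1227 genes.

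Jurkat Clone E6-1 is a human T cell leukaemia line. Cells of the PAR-CLIP libraries were given 50 μM 4-thiouridine, a photoreactive uridine analogue, 7 hr before a 5 hr treatment. Non-activated cells received no PMA and ionomycin in that time. RNA was crosslinked with UV light at 365 nm and 0.2 J/cm2, and eIF3 was purified from every PAR-CLIP sample with an antibody to EIF3B. RNA was recovered from gel bands named by the subunits found in them. The labels of the samples behind the transcription profile used below name neither 4-thiouridine nor UV light. Activated cells, which were treated with PMA and ionomycin for 5 hr and are otherwise alike, enter below only to set the band difference of non-activated cells against theirs.

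A band is a slice of a gel and not a purified subunit, and either band may hold RNA bound to more than 1 protein. The names of the EIF3B/C and EIF3D/L samples also differ in an ending (L001 and L002) whose meaning the labels do not give, so the band and whatever the ending stands for cannot be told apart. The assignment of replicate 2 to non-activated cells follows the sample labels as the depositors later corrected them. All libraries come from 1 clonal line. In the transcription profile of non-activated cells, 10 of 11 T cell markers were above 1 TPM, among them CD3D at 161 and LCK at 67.1 TPM, and the exception was CD4 at 0.234 TPM. Of 14 matched markers of other cell types, only CD79A, at 4.82 TPM, was above 1, and none was named in the 4 cluster lists. CD8A and CD8B, which are genes of CD8 T cells, were counted among these 14, at 0.0684 and 0.430 TPM.

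The initiation factor eIF3 is a large complex that binds the small ribosomal subunit and brings it to the mRNA. EIF3B, EIF3C, EIF3D and EIF3L are among its subunits. EIF3D contacts EIF3E and can bind the cap of certain mRNAs. In PAR-CLIP, a crosslinked 4-thiouridine is read as a T-to-C conversion, so the share of converted reads helps to tell bound RNA from background, and clusters of such reads mark sites of contact.

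Among the small RNAs were miRNA loci, whose mature sequences are shown because several of the listed loci share a seed. The 4 lists named 54 miRNA loci, of which 49 have a mature sequence in RefSeq (GRCh38.p14). The lists name the locus and not the arm. In each sequence the capitals mark the seed, bases 2 to 8 from the 5′ end. The first 4 belong to the loci that both bands held in both replicates, MIR142 (chr17:58331245-58331267 and chr17:58331283-58331303 for the arms, minus strand) and MIR181A1 (chr1:198859069-198859090 and chr1:198859108-198859130, minus strand).
hsa-miR-142-3p: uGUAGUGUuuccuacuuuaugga
hsa-miR-142-5p: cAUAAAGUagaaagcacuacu
hsa-miR-181a-3p: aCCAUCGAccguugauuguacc
hsa-miR-181a-5p: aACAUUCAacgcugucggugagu
Of the 54 miRNA loci, 50 (92.6%) were in no EIF3D/L library, beside 87.0% of all listed genes. Among them, the loci with the seed AAAGUGC (MIR17, MIR20A, MIR93 and MIR106B) were listed in EIF3B/C libraries only.
hsa-miR-17-5p: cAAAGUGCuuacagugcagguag
hsa-miR-20a-5p: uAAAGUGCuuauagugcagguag
hsa-miR-93-5p: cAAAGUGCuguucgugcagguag
hsa-miR-106b-5p: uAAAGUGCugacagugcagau
So were those with the seed AUUGCAC (MIR25, MIR92A1 and MIR363).
hsa-miR-25-3p: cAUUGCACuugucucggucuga
hsa-miR-92a-3p: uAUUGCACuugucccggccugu
hsa-miR-363-3p: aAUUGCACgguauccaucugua
The let-7 seed GAGGUAG was shared by 9 listed loci, shown here by a pair of them.
hsa-let-7b-5p: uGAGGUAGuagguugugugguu
hsa-let-7i-5p: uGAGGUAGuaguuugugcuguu

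The depth of the 4 libraries was of one order. Uniquely aligned reads numbered 191633 and 298205 in EIF3B/C replicates 1 and 2, against 187745 and 178444 in EIF3D/L replicates 1 and 2, and all later values are given in this order. They were 2.14% and 2.33% of the sequenced reads in EIF3B/C, against 1.42% and 1.39% in EIF3D/L. The replicates of a band differed by more than sampling noise over RNA classes, with a chi-squared per degree of freedom of 3.84 in EIF3B/C and 4.26 in EIF3D/L, so each was counted as a separate sample. Intervals printed below are 95% intervals that cover counting error only.

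The EIF3B/C band held about 3 times as large a share of mRNA as the EIF3D/L band. Reads on mRNA regions (5'-UTR, start codon, coding sequence, stop codon and 3'-UTR) made up 36.6% (Wilson interval 36.4 to 36.8) and 37.2% (37.1 to 37.4) of uniquely aligned reads in EIF3B/C. They made up 12.6% (12.5 to 12.8) and 12.5% (12.3 to 12.6) in EIF3D/L. The means were 36.9% ± 0.436 in EIF3B/C and 12.5% ± 0.126 in EIF3D/L (SD, n = 2 each), and the bands did not overlap. Within replicate 1 the share in EIF3B/C was 2.90 times that in EIF3D/L (exact conditional interval 2.86 to 2.94), and within replicate 2 it was 2.99 times (2.95 to 3.03). With 2 against 2 libraries, an exact two-sided permutation test cannot give a p below 0.333, so these shares carry no test of their own.

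The rest of the EIF3D/L libraries lay mostly outside annotated RNA. Reads with no annotation were 38.0% and 37.5% in EIF3B/C, against 59.2% and 60.6% in EIF3D/L. Among annotated reads alone, the mRNA share was 59.0% and 59.6% in EIF3B/C, against 31.0% and 31.6% in EIF3D/L.

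Conversions, the mark of crosslinking, differed with the band as well. Over all uniquely aligned reads, 56.9% in both EIF3B/C replicates carried a T-to-C conversion, against 22.4% in both EIF3D/L replicates. Unannotated reads were converted at fractions of 0.35 and 0.34 in EIF3B/C, against 0.12 in both EIF3D/L libraries. The mRNA reads had a high fraction in both bands, at 0.826 and 0.822 in EIF3B/C, against 0.745 and 0.757 in EIF3D/L. Counted over converted reads only, the mRNA share was 53.1% and 53.8% in EIF3B/C, against 41.9% and 42.1% in EIF3D/L. The ratio of the bands was then 1.27, where it was 2.90 and 2.99 over all reads. Reads are relative to the whole of each library, so less eIF3 in a band and less RNA per eIF3 cannot be told apart.

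**Figure D1:**
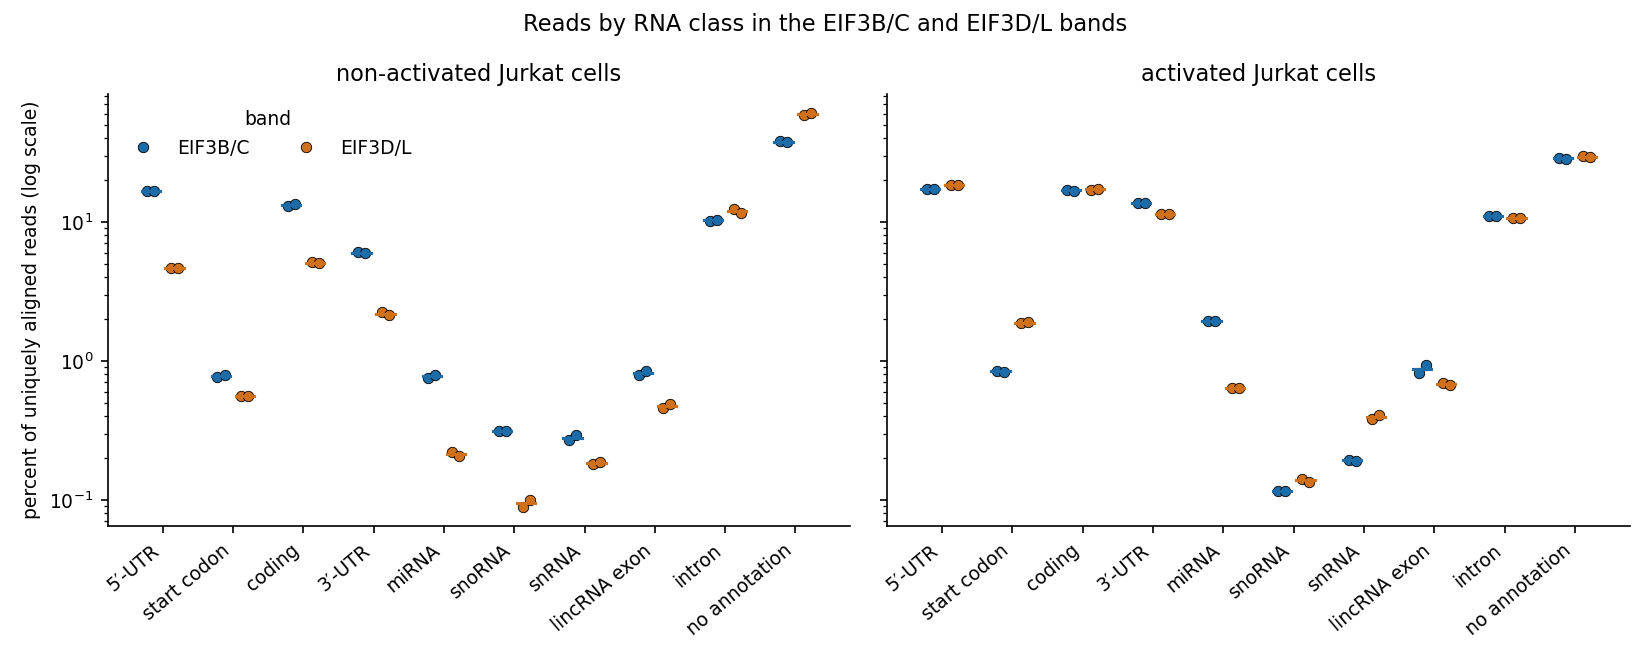
Share of uniquely aligned reads per RNA class (percent, log scale) in each non-activated library, with 1 point per library and EIF3B/C placed beside EIF3D/L. The 5'-UTR stands at 16.6% and 16.8% in EIF3B/C and at 4.66% and 4.64% in EIF3D/L, whereas unannotated and intron reads are higher in EIF3D/L.

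Per RNA class, the mRNA regions and the small regulatory RNAs took larger shares in EIF3B/C, and introns and unannotated reads took larger shares in EIF3D/L. Reads per class were compared with edgeR's quasi-likelihood test, scaled to uniquely aligned reads, and p-values were adjusted over 37 classes by the Benjamini-Hochberg method. This test shares its estimate of the spread over the classes. Its small p-values therefore do not come from the 2 replicates per band of a class alone. EIF3B/C was higher in 21 classes (56.8%) and lower in 5 (13.5%), and with the replicate as a block the counts were again 21 and 5. Since the shares of a library add up to a whole, the split depends on the scaling. TMM factors gave 15 higher and 12 lower, DESeq2's size factors 13 and 12, and unannotated reads left out of the total 16 and 11.

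The 5'-UTR was the largest mRNA region in EIF3B/C. It held 16.6% and 16.8% of reads in EIF3B/C, against 4.66% and 4.64% in EIF3D/L, a log2 fold change of 1.85 ± 0.0359 (SE, edgeR adjusted p = 4.5e-58). Coding sequence held 13.0% and 13.4% in EIF3B/C, against 5.11% and 5.03% in EIF3D/L (log2 fold change 1.38). The 3'-UTR held 6.03% and 6.01% in EIF3B/C, against 2.24% and 2.14% in EIF3D/L (1.46). Start codons stood apart among the regions. They held 0.760% and 0.790% of reads in EIF3B/C, against 0.555% and 0.559% in EIF3D/L, a log2 fold change of only 0.48 ± 0.0681 (adjusted p = 2.0e-09) that was below 0 without the unannotated reads (-0.16).

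The miRNA class, with reads counted whether or not they lay in a cluster, moved as far as the 5'-UTR. It made up 0.753% and 0.791% of reads in EIF3B/C, against 0.223% and 0.206% in EIF3D/L, a log2 fold change of 1.85 ± 0.0812 (edgeR adjusted p = 2.5e-34). Its conversion fraction was 0.72 and 0.74 in EIF3B/C, against 0.35 and 0.34 in EIF3D/L. Small nucleolar RNAs, which guide the modification of rRNA, made up 0.313% and 0.314% in EIF3B/C, against 0.0895% and 0.0992% in EIF3D/L (log2 fold change 1.73). For both classes every EIF3B/C library lay above every EIF3D/L library.

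Small nuclear RNAs, the RNA parts of the spliceosome, differed less between the bands than either of these classes. They made up 0.268% and 0.292% in EIF3B/C, against 0.182% and 0.187% in EIF3D/L (log2 fold change 0.61, but -0.03 without the unannotated reads). Their reads were converted to a similar extent in both bands, at fractions of 0.56 and 0.57 in EIF3B/C, against 0.56 and 0.60 in EIF3D/L. Exons of lincRNAs made up 0.793% and 0.839% in EIF3B/C, against 0.456% and 0.488% in EIF3D/L, with fractions of 0.63 and 0.57 in EIF3B/C, against 0.32 and 0.24 in EIF3D/L. Introns, like unannotated reads, had larger shares in EIF3D/L, at 10.2% and 10.3% in EIF3B/C, against 12.4% and 11.5% in EIF3D/L (log2 fold change -0.22). They were converted at 0.54 and 0.55 in EIF3B/C, against 0.23 and 0.21 in EIF3D/L. Introns of lincRNAs, a class not among those chosen for the report, moved further (-0.51). They made up 6.97% and 6.48% in EIF3B/C, against 9.70% and 9.49% in EIF3D/L.

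One class was nearly confined to EIF3D/L. The class of non-stop decay transcripts had 1 and 4 reads in EIF3B/C, against 320 and 337 in EIF3D/L, and these EIF3D/L reads had a conversion fraction of 0.00. In activated cells the same class had 4 and 2 reads in EIF3B/C, against 4 and 2 in EIF3D/L. The class was singled out after its values were seen.

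**Figure D2:**
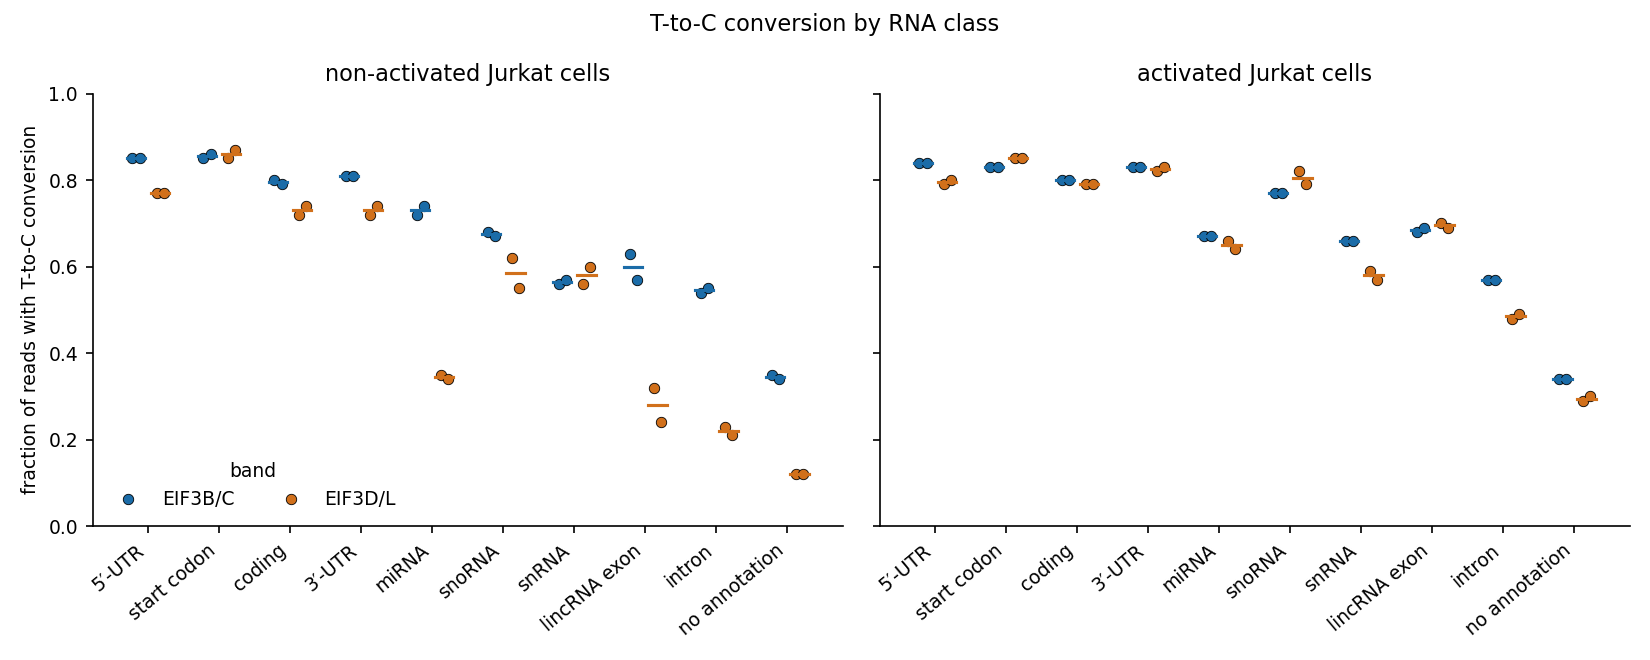
Fraction of reads with a T-to-C conversion (0 to 1) per RNA class, with 1 point per non-activated library and EIF3B/C placed beside EIF3D/L. Start codon and small nuclear RNA reads are converted alike in both bands, whereas miRNA reads stand at 0.72 and 0.74 in EIF3B/C and at 0.35 and 0.34 in EIF3D/L.

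The bands held nearly equal mRNA shares in activated cells. There, mRNA reads made up 49.1% and 48.9% in EIF3B/C, against 49.2% and 49.3% in EIF3D/L. Converted reads made up 63.0% and 62.9% in activated EIF3B/C, against 58.8% and 59.4% in activated EIF3D/L. Whether the band difference itself changed with the state was tested in edgeR as an interaction over the 8 libraries of both states, in which a positive value means a larger EIF3B/C excess in non-activated cells. Of 40 classes tested, 22 (55%) had a positive and 6 (15%) a negative interaction, and the same counts came with the replicate block.

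Among the regions, the interaction was 1.94 ± 0.0250 on the log2 scale for the 5'-UTR (SE, edgeR adjusted p = 1.6e-14), 1.40 for coding sequence and 1.20 for the 3'-UTR. For start codons it was 1.64, since in activated cells their share was 0.846% and 0.837% in EIF3B/C, against 1.88% and 1.89% in EIF3D/L. Per uniquely aligned read, start codons thus had the larger share in EIF3B/C in non-activated cells and the smaller one in activated cells. Among the small RNAs, the miRNA class changed least with the state (interaction 0.26 ± 0.0647, edgeR adjusted p = 0.0038, but -0.36 without the unannotated reads). It was higher in EIF3B/C in activated cells too, at 1.92% in both EIF3B/C libraries and at 0.634% and 0.643% in EIF3D/L. Their activated conversion fractions were 0.67 and 0.67 in EIF3B/C, against 0.66 and 0.64 in EIF3D/L, without the gap seen in non-activated cells.

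Clusters were called in several times as many genes in EIF3B/C as in EIF3D/L. The lists named 699 and 1133 genes in EIF3B/C, against 126 and 117 in EIF3D/L, or 916 ± 307 and 121.5 ± 6.36 genes (SD, n = 2 each). The ratio was 5.55 in replicate 1 and 9.68 in replicate 2, and the deeper EIF3B/C replicate also had the longer list. Scaled to depth, EIF3B/C had 365 and 380 listed genes per 100000 uniquely aligned reads, against 67.1 and 65.6 in EIF3D/L, so the spread between replicates within a band nearly vanished.

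Scaling to mRNA reads left a smaller gap. Per 100000 mRNA reads there were 996 and 1020 listed genes in EIF3B/C, against 531 and 526 in EIF3D/L, a ratio of means of 1.91. Per 100000 converted mRNA reads there were 1206 and 1241 in EIF3B/C, against 713 and 695 in EIF3D/L, a ratio of 1.74. A cluster needs at least 7 reads and 2 conversion positions, and the mRNA depth was 70183 and 111052 reads in EIF3B/C, against 23727 and 22234 in EIF3D/L, so part of this ratio can come from the minimum, and that part was not tested. The ratio per mRNA read was 0.923 in activated cells.

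Within a list, EIF3D/L genes also had fewer sites. The number of sites was 1002 and 1687 in EIF3B/C, against 159 and 139 in EIF3D/L. Genes with a single site were 77.4% and 75.2% of the list in EIF3B/C, against 87.3% and 89.7% in EIF3D/L. The clusters took up 10.6% and 13.2% of uniquely aligned reads in EIF3B/C, against 1.37% and 1.22% in EIF3D/L.

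The EIF3D/L list lay almost within the EIF3B/C list. Both EIF3B/C replicates named 620 genes and both EIF3D/L replicates named 83, and 70 genes were named in all 4 lists, which is 11.3% of the EIF3B/C genes and 84.3% of the EIF3D/L genes. A further 495 genes were listed in both EIF3B/C replicates and in neither EIF3D/L replicate. Only 5 genes were listed in both EIF3D/L replicates and in neither EIF3B/C replicate, and those described here were named after their values were seen. OGT, which encodes the O-GlcNAc transferase, had no entry in EIF3B/C and 18 and 13 reads in EIF3D/L. In proportion to uniquely aligned reads, it would have 18.4 and 21.7 reads in the EIF3B/C libraries. RNU2-32P had 17 and 13 EIF3D/L reads, with low conversion fractions of 0.29 and 0.31. Other RNU2 entries were listed in EIF3B/C, among them RNU2-13P with 38 and 38 reads. HIST1H3I had 9 and 9 EIF3D/L reads, and AREL1 7 and 9.

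Some genes missing from EIF3D/L had EIF3B/C reads that reached the cluster minimum when scaled to EIF3D/L depth, and fewer did so per mRNA read. Of the 620 genes, 410 would have at least 7 reads per site in each EIF3D/L library in proportion to uniquely aligned reads, and of these 62 were listed in both EIF3D/L replicates and 302 in neither. In proportion to mRNA reads 91 genes would reach 7 reads per site, of which 33 were listed in both EIF3D/L replicates and 45 in neither. These counts take every site of a gene as equally strong.

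Reads per gene were compared with edgeR's quasi-likelihood test, with uniquely aligned reads as library sizes, for the 475 genes that reached 20 reads in some library. EIF3B/C was higher at an adjusted p under 0.05 in 307 genes (64.6% of those tested) and lower in 0 (0%), with 333 higher and 0 lower at an unadjusted p under 0.05. DESeq2 with the same library sizes gave 1 lower gene. Of the 307 genes, 267 were listed in no EIF3D/L library, out of 346 tested genes of that kind. Such genes passed the filter through the band in which they are high and could differ only towards EIF3B/C. The count therefore describes the lists, and no fold change is given for these genes. With the replicate as a block no gene passed (53 at an unadjusted p under 0.05), and none passed without EIF3B/C replicate 1 (58) or without EIF3B/C replicate 2 (52), so every call of a single gene below rests on the fit without the block and on both EIF3B/C libraries. The count was 324 without EIF3D/L replicate 1 and 329 without EIF3D/L replicate 2.

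With mRNA reads as library sizes, the same test found EIF3B/C higher in 247 genes (52%) and lower in 7 (1.47%), and all 247 were also among the 307. Of the 247 genes, 238 were listed in no EIF3D/L library and 9 in all 4 libraries, as were all 7 lower genes. The filter left 65 of the 70 genes with an entry in every library, and over these 65 the median log2 fold change was 1.92 per uniquely aligned read and 0.36 per mRNA read, and 4 and 30 of the 65 genes lay below 0 on these scales. A value per uniquely aligned read is therefore best read against 1.92 and one per mRNA read against 0.36. In the accounts of single genes below, a fold change is on the log2 scale, EIF3B/C over EIF3D/L, and per uniquely aligned read unless it is said to be per mRNA read.

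**Figure D3:**
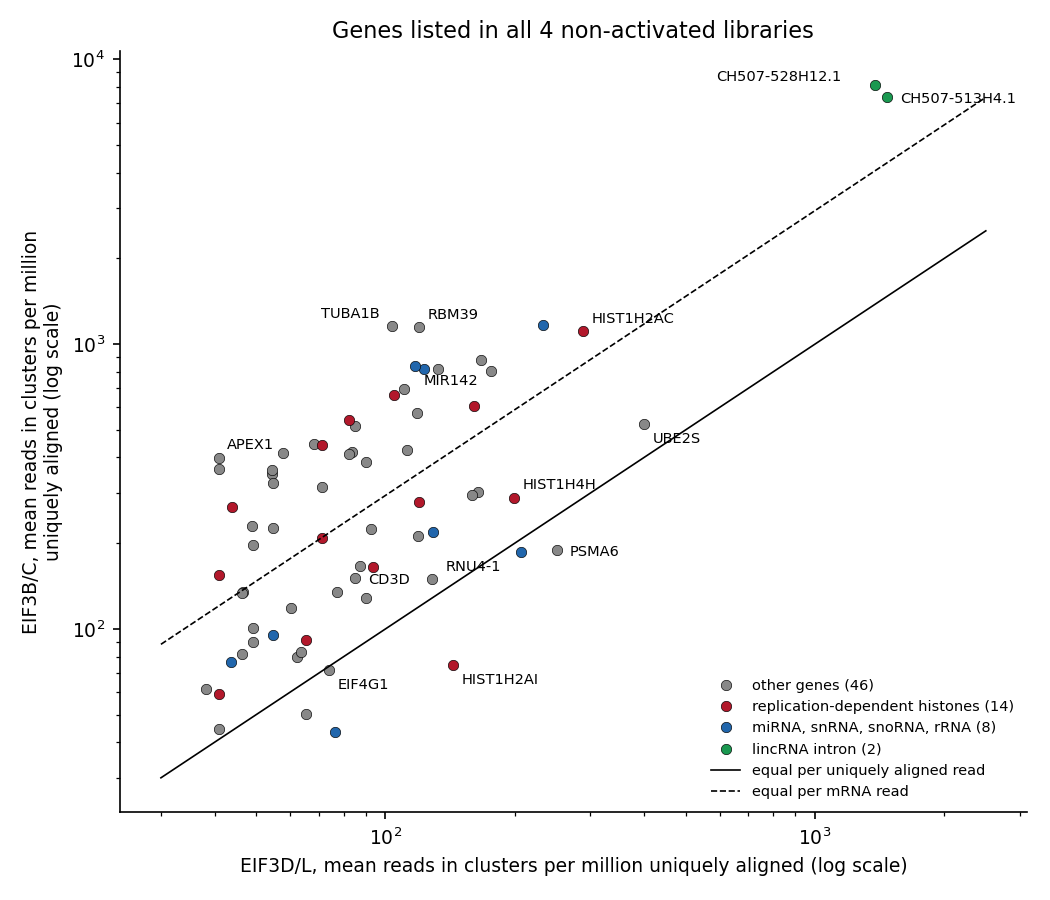
Mean reads in clusters per 1000000 uniquely aligned reads (log scales) of the 70 genes listed in all 4 non-activated libraries, with EIF3B/C on the vertical and EIF3D/L on the horizontal axis. TUBA1B, RBM39 and APEX1 lie above both the line of equal levels per uniquely aligned read and that per mRNA read, whereas PSMA6, RNU4-1 and HIST1H2AI lie below both.

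Among called genes with an entry in every library, TUBA1B, RBM39, APEX1, HNRNPA2B1 and ACTB had the 5 highest values. TUBA1B, an alpha tubulin (chr12:49127782-49131397, minus strand, GRCh38), had 220 and 348 reads in EIF3B/C, against 23 and 15 in EIF3D/L, all at a 5'-UTR site. Its log2 fold change was 3.49 ± 0.355 per uniquely aligned read (SE, edgeR adjusted p = 0.008) and 1.93 per mRNA read (adjusted p = 0.018). RBM39, a splicing factor (chr20:35701347-35742312, minus strand), had 228 and 331 reads in EIF3B/C, against 24 and 20 in EIF3D/L, at 5'-UTR sites (log2 fold change 3.26 ± 0.292). APEX1, an endonuclease of base excision repair, had 74 and 123 reads in EIF3B/C, against 8 and 7 in EIF3D/L (3.29 ± 0.247). HNRNPA2B1, which binds nuclear RNA, had 67 and 113 reads in EIF3B/C, against 7 and 8 in EIF3D/L (3.15 ± 0.256). These 4 passed on both scales, whereas ACTB, with 70 and 138 reads in EIF3B/C, against 8 and 13 in EIF3D/L, passed per uniquely aligned read (2.85 ± 0.400, adjusted p = 0.009) and not per mRNA read (1.28, adjusted p = 0.072).

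At the other end of the genes called higher were some with little excess in EIF3B/C. MRPL3, a mitochondrial ribosomal protein, had 17 and 27 reads in EIF3B/C, against 9 and 9 in EIF3D/L (0.87 ± 0.205, edgeR adjusted p = 0.041). CD3D, a chain of the T cell receptor complex, had 28 and 56 reads in EIF3B/C, against 17 and 15 in EIF3D/L (0.94 ± 0.244, adjusted p = 0.039). CKS2, CCNB1 and SNRPF were the other genes with the lowest called values, at 0.88, 0.98 and 1.28. Per mRNA read all 5 had values below 0, from -0.69 to -0.27, and none passed. DESeq2 with the same library sizes did not call MRPL3, CD3D, CKS2 or CCNB1 (adjusted p from 0.119 to 0.262). Without EIF3D/L replicate 1 edgeR called none of these 4 (adjusted p from 0.066 to 0.119), and without EIF3D/L replicate 2 it did not call MRPL3, CD3D or CCNB1 (adjusted p from 0.0503 to 0.100).

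The 7 genes lower in EIF3B/C per mRNA read all had called clusters in all 4 libraries, and none of them passed per uniquely aligned read. PSMA6, a subunit of the proteasome core (chr14:35278633-35317493, plus strand), had 36 and 57 reads in EIF3B/C, against 46 and 46 in EIF3D/L. Its EIF3D/L sites lay in the 5'-UTR and its EIF3B/C sites in the 5'-UTR and at the start codon. Its log2 fold change was -1.97 ± 0.255 per mRNA read (edgeR adjusted p = 0.014) and -0.41 per uniquely aligned read (adjusted p = 0.182). EIF4G1, the scaffold of the cap-binding complex eIF4F, had 12 and 24 reads in EIF3B/C, against 13 and 14 in EIF3D/L (-1.60 per mRNA read, -0.04 per uniquely aligned read). SLC25A36, a mitochondrial carrier of pyrimidine nucleotides, had 28 and 46 reads in EIF3B/C, against 23 and 24 in EIF3D/L (-1.33 per mRNA read). UBE2S, a ubiquitin-conjugating enzyme of mitosis, was the mRNA with the most reads in EIF3D/L, with 97 and 161 reads in EIF3B/C, against 83 and 64 in EIF3D/L (-1.17 per mRNA read, 0.39 per uniquely aligned read). RNU4-1, HIST1H2AI and HIST1H4H completed the 7, at -1.71, -2.51 and -1.02 per mRNA read. Restricted to the 65 tested genes listed in all 4 libraries, the test called 46 higher (70.8%) and 0 lower per uniquely aligned read, and 14 higher (21.5%) and 10 lower (15.4%) per mRNA read.

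ATF4, a transcription factor of the stress response whose mRNA carries upstream reading frames, was not listed in EIF3B/C replicate 1, had 11 reads in EIF3B/C replicate 2, and had 36 and 29 reads in EIF3D/L. It lay among the 10 genes with the most reads in EIF3D/L. Its reads were at the 5'-UTR in each library that listed it. The test gave no call, with an edgeR adjusted p of 0.125.

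Among genes listed in EIF3B/C only, the 5 with the most reads were ARF6, CRKL, LMNB1, C7orf55-LUC7L2 and UBE2D2. ARF6, a GTPase of membrane traffic, had 133 and 212 EIF3B/C reads, and CRKL, an adaptor of tyrosine kinase signalling, had 134 and 205. Their sites lay in the 5'-UTR. In proportion to mRNA reads, ARF6 would have 45.0 and 42.4 reads in the EIF3D/L libraries and CRKL 45.3 and 41.0, and neither had a called cluster there. LMNB1, a nuclear lamin, had 107 and 170 EIF3B/C reads, C7orf55-LUC7L2 had 95 and 147, and UBE2D2, another ubiquitin-conjugating enzyme, had 89 and 135.

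A few of the strongest entries were not mRNA or were held by 1 library. CH507-513H4.1, a lincRNA intron entry, had 1097 and 2697 reads in EIF3B/C, against 218 and 319 in EIF3D/L (2.32 per uniquely aligned read, edgeR adjusted p = 0.019), and CH507-528H12.1 had 1683 and 2215 in EIF3B/C, against 403 and 109 in EIF3D/L (2.56, adjusted p = 0.052). HFM1 had 617 reads at an intron site in EIF3B/C replicate 2 and was not listed in the other 3 libraries.

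The gene lists that follow are set beside all listed genes. Of the 1227 genes, 1067 (87.0%) were in no EIF3D/L library. Of the tested genes 64.6% rose, and of the 65 tested genes listed in all 4 libraries 39 rose. A member in no EIF3D/L library could differ only towards EIF3B/C, so the number of such members is given with each count of those that rose.

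Replication-dependent core histone mRNAs, which end in a stem-loop in place of a poly(A) tail, took the largest share of the EIF3D/L clusters among the gene lists. Of 64 members, 42 were listed in any library, 30 and 40 in EIF3B/C, against 24 and 19 in EIF3D/L, and 14 in all 4. They held 7.68% and 6.79% of cluster reads in EIF3B/C, against 16.2% and 15.7% in EIF3D/L. HIST1H2AC, an H2A gene, had 203 and 348 reads in EIF3B/C, against 59 and 47 in EIF3D/L (1.95 per uniquely aligned read, edgeR adjusted p = 0.010). HIST1H3F had 262 and 400 reads in EIF3B/C, against 9 in EIF3D/L replicate 1 and no entry in replicate 2. HIST1H4K was not listed in EIF3B/C replicate 1, had 34 reads in EIF3B/C replicate 2, and had 34 and 33 in EIF3D/L. Of the 42, 18 (42.9%) were in no EIF3D/L library. Of 29 tested members, 16 rose and none fell per uniquely aligned read, 7 of the 16 being in no EIF3D/L library, and 8 rose and 2 fell per mRNA read. Over the 13 tested of the 14 members listed in all 4, of which 8 rose, the medians of 1.91 and 0.36 were close to the 1.92 and 0.36 of the 65 genes. Histone genes are near-identical copies, so reads can be split among them and the single values are uncertain.

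Linker and replacement histones included H1FX, with 138 and 267 reads in EIF3B/C, against 43 and 22 in EIF3D/L (2.20, edgeR adjusted p = 0.022). H3F3B, which encodes the replacement histone H3.3, had 53 and 111 reads in EIF3B/C, against 9 and 11 in EIF3D/L (2.57, adjusted p = 0.008). Of 7 tested members 4 rose, of which 2 were in no EIF3D/L library, and none fell.

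Of 79 cytosolic ribosomal protein genes, 24 were listed, 16 and 23 in EIF3B/C, against 2 and 4 in EIF3D/L. Of the 24, 20 (83.3%) were in no EIF3D/L library, near the share of all listed genes, as were 8 of the 9 that rose among 11 tested. RPL38 had 69 and 108 reads in EIF3B/C, against 12 and 8 in EIF3D/L (2.73 per uniquely aligned read and 1.17 per mRNA read, edgeR adjusted p = 0.008 and 0.047). FAU, which encodes a ubiquitin-like protein fused to a ribosomal protein, had 52 and 95 reads in EIF3B/C, against 26 and 32 in EIF3D/L, and did not pass (0.89, adjusted p = 0.056). Of the 40 other translation factors, 14 were listed, 11 of them (78.6%) in no EIF3D/L library, and 5 of 8 tested rose. Of these 5, 4 were in no EIF3D/L library and the other was EIF5A, with 61 and 114 reads in EIF3B/C, against 11 and 9 in EIF3D/L (2.68, adjusted p = 0.008). Of the 13 eIF3 subunits only EIF3A and EIF3M were listed, each with 7 reads in EIF3B/C replicate 2.

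Genes of hnRNP and SR proteins, which package and splice nuclear RNA, were listed 19 and 23 times in EIF3B/C, against 5 and 4 times in EIF3D/L, out of 36. Of the 24 listed, 19 (79.2%) were in no EIF3D/L library. Of 14 tested, 12 rose, 9 of which were in no EIF3D/L library, and none fell. HNRNPAB had 158 and 280 reads in EIF3B/C, against 26 and 35 in EIF3D/L (2.40, edgeR adjusted p = 0.009). SRSF3, a splicing factor, had 80 and 182 reads in EIF3B/C, against 15 and 16 in EIF3D/L (2.60). The 4 members listed in all libraries had a median of 2.50 per uniquely aligned read and 0.94 per mRNA read, and 3 of them rose, set beside 1.92 and 0.36 for the 65 genes.

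Of 28 genes of the T cell receptor complex and its proximal signalling, 7 were listed, 7 and 6 in EIF3B/C, against 3 and 3 in EIF3D/L. LAT, the adaptor that gathers signalling proteins at the receptor, had 37 and 77 reads in EIF3B/C, against 10 and 10 in EIF3D/L (2.05, edgeR adjusted p = 0.008). The kinase CSK, which restrains LCK, had 64 and 144 reads in EIF3B/C and no entry in EIF3D/L. TRBC2, a constant region of the receptor beta chain, had 10 and 11 reads in EIF3B/C, against 8 and 7 in EIF3D/L. It was the TCR gene most even between the bands, in a list in which all 5 tested members rose per uniquely aligned read, 3 of which were in no EIF3D/L library, and 2 rose per mRNA read.

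Transcription factors of the T lineage were few. SOX4 had 145 and 261 reads in EIF3B/C, against 15 and 33 in EIF3D/L (2.63, edgeR adjusted p = 0.022), and it had 6 and 7 sites in EIF3B/C, against 1 and 4 in EIF3D/L. LEF1 had 135 and 242 reads in EIF3B/C, against 15 in EIF3D/L replicate 1 and no entry in replicate 2. Of 31 immediate early genes only PIM3, with 9 and 28 EIF3B/C reads, and MYC, with 11 and 24, were listed. Both were in no EIF3D/L library, as were 87.0% of all listed genes. In proportion to mRNA reads PIM3 would have 3.04 and 5.61 EIF3D/L reads and MYC 3.72 and 4.81, all under the cluster minimum of 7. In proportion to uniquely aligned reads PIM3 would have 8.82 and 16.8 and MYC 10.8 and 14.4.

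Genes of growth and metabolism were absent from EIF3D/L at shares near that of all listed genes. Of the G1/S genes, 10 and 12 were listed in EIF3B/C, against 1 and 1 in EIF3D/L, and 10 of the 12 (83.3%) were in no EIF3D/L library. For glycolysis and for oxidative phosphorylation genes this share was 87.5%. Of tested members, 6 of 8 G1/S, 4 of 5 glycolysis and 7 of 10 oxidative phosphorylation genes rose, and each that rose was in no EIF3D/L library. TYMS, the thymidylate synthase, had 84 and 123 reads in EIF3B/C and no entry in EIF3D/L. PGK1, a glycolytic kinase, had 47 and 93 reads in EIF3B/C, and COX6B1, a subunit of cytochrome oxidase, had 38 and 56, neither with an entry in EIF3D/L. GAPDH had 28 and 32 reads in EIF3B/C, against 10 in EIF3D/L replicate 1 and no entry in replicate 2. No member of these 3 lists fell.

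Among chaperones 4 of 7 tested rose, of which 3 were in no EIF3D/L library. HSP90AB1 had 55 and 102 reads in EIF3B/C, against 13 and 13 in EIF3D/L (2.15), whereas HSPA8 had 24 and 89 reads in EIF3B/C, against 31 and 13 in EIF3D/L, and did not pass (0.84, edgeR adjusted p = 0.319). Of the ubiquitin-conjugating enzymes 6 of 9 tested rose, all 6 in no EIF3D/L library, and UBE2S was their only listed member in EIF3D/L, where it took 3.23% and 2.94% of cluster reads. Of the actin and tubulin list 8 of 12 tested rose, of which 4 were in no EIF3D/L library and 4 were listed in all 4. TUBB, a beta tubulin, had 68 and 147 reads in EIF3B/C, against 18 and 23 in EIF3D/L (1.92, adjusted p = 0.016).

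**Figure D4:**
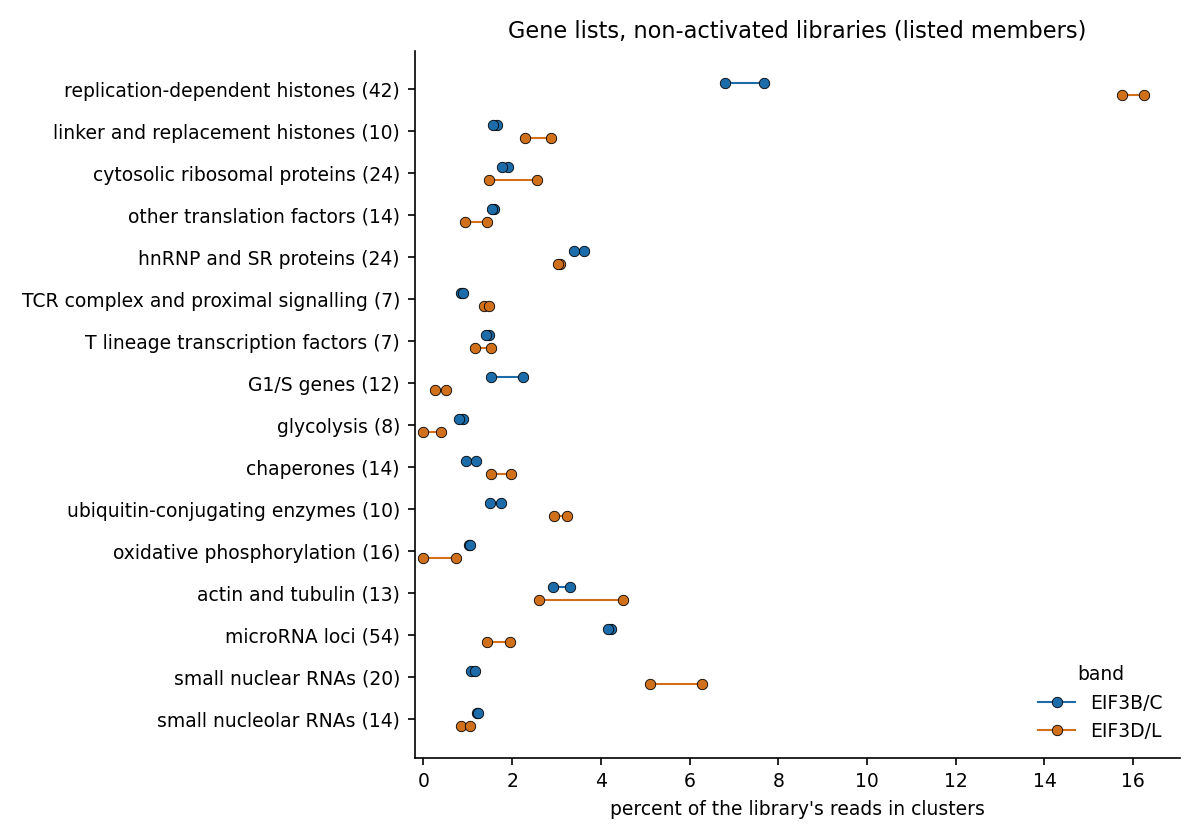
Share of reads in clusters (percent) held by each gene list, with 1 point per non-activated library and EIF3B/C placed beside EIF3D/L. Replication-dependent histones stand at 7.68% and 6.79% in EIF3B/C and at 16.2% and 15.7% in EIF3D/L, whereas miRNA loci stand at 4.24% and 4.17% in EIF3B/C and at 1.95% and 1.42% in EIF3D/L.

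In clusters, 50 of the 54 miRNA loci (92.6%) were in no EIF3D/L library, beside 87.0% of all listed genes. There were 34 and 48 loci in EIF3B/C, against 4 and 2 in EIF3D/L, with 857 and 1645 reads in EIF3B/C, against 50 and 31 in EIF3D/L. MIR142, whose miRNA is abundant in blood cells and whose arms are printed above, had 132 and 295 reads in EIF3B/C, against 23 and 20 in EIF3D/L (2.84 ± 0.347 per uniquely aligned read, edgeR adjusted p = 0.008, and 1.28 per mRNA read). MIR181A1 had 14 and 35 reads in EIF3B/C, against 9 and 11 in EIF3D/L, and the only other loci in EIF3D/L were MIR3615 and MIR3917, with 10 and 8 reads in replicate 1.

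By seed, the let-7 loci (GAGGUAG) were listed 5 and 9 times in EIF3B/C, with 112 and 210 reads, and in no EIF3D/L library. The AAAGUGC loci, among them MIR20A and MIR93 with the sequences above, had 136 and 129 EIF3B/C reads, the AUUGCAC loci 72 and 145, and the AGCAGCA loci of the miR-15 and miR-16 family 46 and 52. MIR92A1 alone had 53 and 122 EIF3B/C reads. MIR17 had 45 reads in EIF3B/C replicate 1 and no entry in replicate 2. MIR16-2 and MIR16-1 share the mature sequence hsa-miR-16-5p. MIR16-2 had 23 reads in EIF3B/C replicate 1 and no entry in replicate 2, and MIR16-1 had 29 reads in replicate 2 and no entry in replicate 1. Whether reads were assigned to different copies in the replicates was not tested. Of 26 tested miRNA loci 14 rose, of which 13 were in no EIF3D/L library, and none fell.

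Small nuclear RNAs held a larger share of the EIF3D/L clusters. Listed members were 9 and 16 in EIF3B/C, against 7 and 8 in EIF3D/L, with 216 and 463 reads (1.07% and 1.17% of cluster reads) in EIF3B/C, against 131 and 137 (5.10% and 6.29%) in EIF3D/L. RNU4-1, which encodes U4 snRNA, had 32 and 61 reads in EIF3B/C, against 44 and 32 in EIF3D/L (-0.15 per uniquely aligned read, and -1.71 per mRNA read with an edgeR adjusted p of 0.021). RNU5A-1, which encodes U5 snRNA, had 40 and 68 reads in EIF3B/C, against 18 and 29 in EIF3D/L (0.76, adjusted p = 0.140). Of the 4 members listed in all libraries, 3 were tested, with a median of 0.76 per uniquely aligned read and -0.80 per mRNA read. The other, RNU5D-1, had 9 and 12 reads in EIF3B/C, against 15 and 13 in EIF3D/L. Of 10 tested members 2 rose, both in no EIF3D/L library, and none fell per uniquely aligned read.

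Of the small nucleolar RNAs 8 and 14 were listed in EIF3B/C, against 1 and 1 in EIF3D/L. The only one in EIF3D/L was ACEA_U3, a U3 entry, with 121 and 300 reads in EIF3B/C, against 22 and 23 in EIF3D/L (2.74, edgeR adjusted p = 0.009). Its conversion fraction was 0.57 and 0.58 in EIF3B/C, against 0.18 and 0.57 in EIF3D/L.

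Within mRNA, the 5'-UTR led in both bands by sites, and the start codon had a larger share in EIF3D/L. Of mRNA reads, 45.4% and 45.1% lay in the 5'-UTR in EIF3B/C, against 36.9% and 37.2% in EIF3D/L. Start codons held 2.07% and 2.12% of mRNA reads in EIF3B/C, against 4.39% and 4.48% in EIF3D/L. With mRNA reads as library sizes and 5 regions tested, the start codon fell in EIF3B/C by 1.08 on the log2 scale (SE 0.0595, edgeR adjusted p = 1.4e-08, with the same value under the replicate block). The 5'-UTR rose by 0.29, and coding sequence and 3'-UTR fell by 0.17 and 0.10, so of the 5 regions 1 (20%) rose and 3 (60%) fell. Coding reads were 35.5% and 36.1% of mRNA reads in EIF3B/C, against 40.4% and 40.4% in EIF3D/L.

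**Figure D5:**
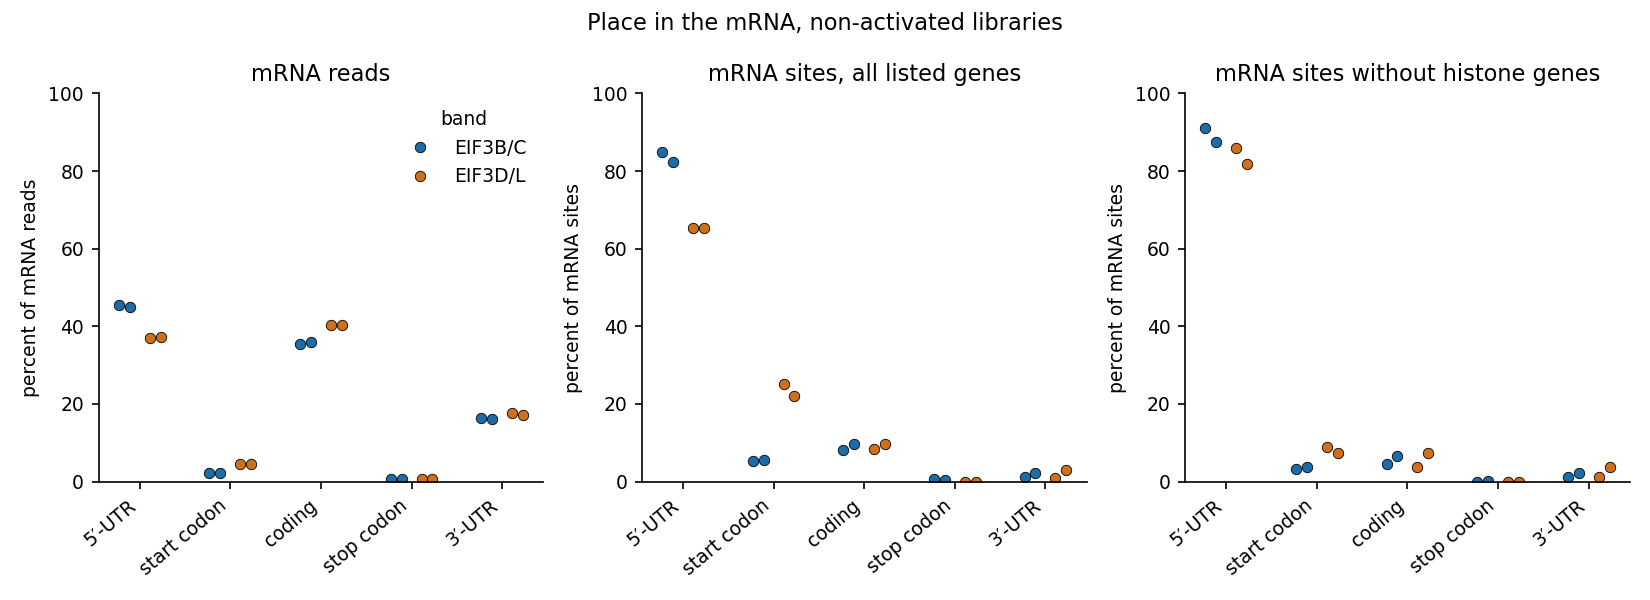
Share of mRNA reads, of mRNA sites and of mRNA sites without core histone genes (percent) in each mRNA region. Each point is a non-activated library, with EIF3B/C placed beside EIF3D/L. Start codons hold 5.39% and 5.44% of sites in EIF3B/C, against 25.2% and 22.1% in EIF3D/L.

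The called sites differed in the same way and by more. The start codon held 40 of 742 sites (5.39%, Wilson interval 3.98 to 7.26) and 69 of 1269 (5.44%, 4.32 to 6.82) in EIF3B/C. It held 27 of 107 (25.2%, 18.0 to 34.2) and 23 of 104 (22.1%, 15.2 to 31.0) in EIF3D/L. The 5'-UTR held 84.9% and 82.3% of sites in EIF3B/C, against 65.4% and 65.4% in EIF3D/L. Counted together with start codons, the 5'-UTR held 90.3% and 87.7% of sites in EIF3B/C, against 90.7% and 87.5% in EIF3D/L. By reads this sum was 47.5% and 47.2% in EIF3B/C, against 41.3% and 41.7% in EIF3D/L. The sum over sites also pools unlike sets of genes. Core histones held 54 of 742 and 79 of 1269 mRNA sites in EIF3B/C, against 28 of 107 and 22 of 104 in EIF3D/L.

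Most EIF3D/L start codon sites were on histone mRNAs. Genes with a start codon site numbered 39 and 69 in EIF3B/C, of which 18 and 25 were replication-dependent histones, and 27 and 23 in EIF3D/L, of which 20 and 17 were. Within the histones the bands also differed, with 33.3% and 31.6% of histone sites at the start codon in EIF3B/C, against 71.4% and 77.3% in EIF3D/L, and 53.7% and 58.2% in coding sequence in EIF3B/C, against 21.4% and 18.2% in EIF3D/L. HIST1H4H had sites at the start codon, the coding sequence and the stop codon in EIF3B/C replicate 2 and only at the start codon in EIF3D/L replicate 1.

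Without the core histones the start codon held 3.20% and 3.70% of sites in EIF3B/C (22 of 688 and 44 of 1190), against 8.86% and 7.32% in EIF3D/L (7 of 79 and 6 of 82). The EIF3D/L values thus rest on few sites, among them those of the linker histones HIST1H1B and HIST1H1D. CD3D was the gene outside the histones with a start codon site in all 4 libraries and without any other site in EIF3D/L replicate 1. B2M, which encodes the light chain of MHC class I, and MTHFD2, a mitochondrial folate enzyme, had one in both EIF3B/C libraries and in EIF3D/L replicate 1. These 3 genes were picked after their sites were seen.

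At the sites, conversion differed less between the bands than over whole libraries. Clusters are called only where reads carry conversions, at 2 positions or more, so the calling itself favours high fractions in both bands. The median T-to-C fraction per listed gene was 0.93 and 0.92 in EIF3B/C, against 0.87 and 0.88 in EIF3D/L. Over the 70 genes listed in all 4 libraries the medians were 0.895 and 0.88 in EIF3B/C, against 0.87 and 0.88 in EIF3D/L. Of these genes 16 were higher in EIF3B/C in both replicates, 17 were lower in both and 37 were neither, so no direction was seen among shared genes.

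Genes listed in EIF3D/L had more abundant mRNA. For listed genes with an mRNA site, the median of the authors' mean TPM in non-activated cells was 10.9 and 9.40 in EIF3B/C, against 44.9 and 43.7 in EIF3D/L. Without the core histones, the medians were 10.3 and 9.08 in EIF3B/C, against 27.9 and 28.3 in EIF3D/L. Genes listed in all 4 libraries had a median of 52.5 TPM, those in both EIF3B/C and neither EIF3D/L library 10.1, and all 17303 genes with a protein-coding isoform 1.01. The median number of cluster reads per gene was 13 and 15 in EIF3B/C, against 11.5 and 11 in EIF3D/L, close to the minimum of 7 in both bands, and the part of mRNA depth in the difference of TPM was not tested.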

How the data were processed

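PAR-CLIP clusters and read statistics of the EIF3B/C and EIF3D/L bands, with 2 replicates of each in non-activated Jurkat cells, were used, with the activated libraries of the same bands for the interaction. The authors collapsed reads by barcode, aligned them to hg38, annotated them with GENCODE release 21 and called clusters with PARpipe, with at least 7 reads, 2 conversion positions and a size of 11 per cluster. The deposited counts are whole reads and sites per gene in clusters, and uniquely aligned reads per RNA class. The deposited T-to-C fraction is the share of reads with a conversion. TPM values, from kallisto, were deposited by the authors as the mean of the replicates. The TPM files hold no read numbers. Genes without a called cluster entered as 0. Columns in the files belonging to no sample of this series numbered 0.

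Reads per gene (at least 20 in any of the 4 libraries) and per RNA class were compared with edgeR 4.0.16 (glmQLFTest, no block, Benjamini-Hochberg adjustment, threshold 0.05) in R 4.3.3, with uniquely aligned reads or mRNA reads as library sizes. DESeq2 1.42.0, TMM, other library sizes and filters, all 8 libraries in 1 fit, the replicate as a block and fits without each library in turn were alternatives. The fits were also run on simulated counts with a fixed spread and no cluster minimum, so that run does not bear on genes that entered as 0. Converted reads are class reads times the class fraction, rounded in the files to 2 decimals. Values were summarised in Python 3.11.15 (numpy 2.4.6, pandas 2.3.3, scipy 1.17.1, statsmodels 0.14.6), and matplotlib 3.10.9 drew the figures. Same-numbered bands come from the immunoprecipitate of one replicate, which is why the number was tried as a block. The correlation of replicate deviations between the bands was 0.0469 over 70 genes listed in all 4 libraries and 0.236 over 29 RNA classes. Depth was 178444 to 298205 uniquely aligned reads per non-activated library. Gene positions are from a GENCODE annotation of GRCh38.

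Genes named are the 10 with the most reads in each band, the 5 highest and 5 lowest called genes listed in all 4 libraries, the 5 called genes with the most reads listed in a single band, and at most 4 members per gene list with the most reads. The 7 genes lower per mRNA read, TRBC2, RNU5D-1, HIST1H3I, MIR181A1, the miRNA seed loci and the other names said to be chosen later were added after their values were seen. There were 19 lists, of which 16 by gene name. The members and lists were chosen with earlier results of these data known, and 15 markers of other cell types, with CD8A and CD8B among them, were checked. One listed gene is not reported here.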

Additional observations from a re-analysis of the deposited data

Results flagged for a closer look

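The band difference, EIF3B/C over EIF3D/L, differed between non-activated and activated cells in the edgeR interaction test for each of the 10 RNA classes chosen for the report. On the log2 scale the interaction was 1.94 for the 5'-UTR, 1.64 for start codons, 1.40 for coding sequence and 1.20 for the 3'-UTR. It was 1.97 for small nucleolar RNAs, 1.65 for small nuclear RNAs, 0.45 for exons of lincRNAs and 0.26 for miRNAs. It was -0.27 for introns and -0.63 for unannotated reads. Unannotated reads were 38.0% and 37.5% in non-activated EIF3B/C and 59.2% and 60.6% in non-activated EIF3D/L, and 28.6% and 28.6% in activated EIF3B/C and 29.6% and 29.2% in activated EIF3D/L. Their part in the other values was not tested beyond leaving them out of the total, which turned the signs for miRNAs and for lincRNA exons.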

How the results depend on the processing

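Direction and calls across RNA classes held under the replicate block and without each library, whereas the calls across genes did not. The number of genes higher in EIF3B/C was 307 in the analysis reported. With the replicate as a block it was 0, and 0 with mRNA reads as library sizes as well. Leaving out each library gave 0 to 329 genes (0 to 231 with mRNA reads as library sizes), with 0 for either EIF3B/C library. DESeq2 with its own size factors gave 27, reads in clusters as library sizes 169, no filter on low counts 620, a minimum of 50 reads 108, genes listed in all 4 libraries 46, and these with mRNA reads 14. The number lower was 0 in the analysis reported, 7 with mRNA reads, 9 with TMM, 25 with cluster reads, 2 and 1 with DESeq2 under its own and under uniquely aligned size factors, 9 with no filter, 1 when all 8 libraries shared the spread, 10 over genes listed in all 4 libraries with mRNA reads, and 0 to 1 without each library, or 0 to 9 of these with mRNA reads (6 and 9 without EIF3D/L replicate 1 and 2). Among the classes, the number higher was 13 with DESeq2, and the number lower was 12 with DESeq2, 12 with TMM and 11 without unannotated reads, against 21 and 5. Without unannotated reads the positive interactions numbered 14 and the negative ones 10, against 22 and 6.

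Scaling set the direction of single results. Among the 65 tested genes with an entry in every library, the median log2 fold change was 1.92 per uniquely aligned read, 0.36 per mRNA read, 0.07 with TMM, 0.15 with DESeq2 and -1.27 per read in clusters, which are shifts of -1.56, -1.85, -1.77 and -3.19. The start codon class stood at -0.16 without unannotated reads, -0.23 with TMM and -0.26 with DESeq2, the small nuclear RNA class at -0.028, -0.10 and -0.14, and the interactions of miRNA and lincRNA exons at -0.36 and -0.17 without unannotated reads. With mRNA reads as library sizes the log2 fold changes below 0 were UBE2S -1.17, HIST1H4H -1.02, MRPL3 -0.69, CKS2 -0.68, CD3D -0.62, CCNB1 -0.58, SNRPF -0.27, FAU -0.67, HSPA8 -0.72 and RNU5A-1 -0.80. With TMM they were UBE2S -1.47, HIST1H4H -1.32, MRPL3 -0.98, CKS2 -0.96, CD3D -0.92, CCNB1 -0.87, SNRPF -0.57, FAU -0.96, HSPA8 -1.06 and RNU5A-1 -1.09, and with DESeq2 UBE2S -1.38, HIST1H4H -1.24, MRPL3 -0.90, CKS2 -0.88, CD3D -0.84, CCNB1 -0.78, SNRPF -0.48, FAU -0.88, HSPA8 -0.97 and RNU5A-1 -1.01. With reads in clusters as library sizes they were CH507-528H12.1 -0.57, CH507-513H4.1 -0.92, HIST1H2AC -1.24, HNRNPAB -0.81, MIR142 -0.37, UBE2S -2.80, HIST1H4H -2.67, MRPL3 -2.33, CKS2 -2.31, CD3D -2.27, CCNB1 -2.22, SNRPF -1.89, ACTB -0.38, HNRNPA2B1 -0.0481, H1FX -0.98, H3F3B -0.65, FAU -2.32, RPL38 -0.44, EIF5A -0.51, SRSF3 -0.62, LAT -1.16, SOX4 -0.60, HSP90AB1 -1.05, HSPA8 -2.39, TUBB -1.31, RNU5A-1 -2.46 and ACEA_U3 -0.49. EIF4G1, at -0.04, ranged from -0.13 to 0.12 without each library (without EIF3B/C replicate 2 it was under the filter), and RNU4-1, at -0.15, from -0.33 to 0.056.

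The ratio of listed genes was 1.91 per mRNA read and 12.2 for genes with at least 20 reads, against 7.54. The mean mRNA share was 59.3% in EIF3B/C and 31.3% in EIF3D/L among annotated reads, and 53.5% and 42.0% among converted reads. The 5'-UTR share of sites, 89.0% in EIF3B/C and 89.1% in EIF3D/L with start codons included, was 83.6% and 65.4% without them, 92.8% and 92.0% without core histones, and 47.3% and 41.5% by reads. The start codon share of sites, 5.41% in EIF3B/C and 23.7% in EIF3D/L, was 3.45% and 8.09% without core histones, and 2.10% and 4.44% by reads. The median conversion fraction in EIF3B/C was 0.8875 over genes listed in all 4 libraries, against 0.925 over all listed genes. The depth of the TPM tables is unknown. The causes of these changes were not tested.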

Other observations

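Over converted reads alone, the regions ordered the bands differently. Start codon reads made up 1.13% and 1.19% of converted reads in EIF3B/C, against 2.10% and 2.17% in EIF3D/L, and small nuclear RNAs 0.26% and 0.29% in EIF3B/C, against 0.45% and 0.50% in EIF3D/L. The 5'-UTR made up 24.8% and 25.1% of converted reads in EIF3B/C, against 16.0% and 15.9% in EIF3D/L, and miRNAs 0.95% and 1.03% in EIF3B/C, against 0.35% and 0.31% in EIF3D/L. These shares are class reads times the deposited class fraction, and no test was run on them.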
